A study of Mus musculus with 12 samples.

Results

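The genes Epcam, Cd24a, Cd44, Prom1, Cd109 and Kit encode cell surface proteins that have been used to sort or describe liver progenitor cells, and their RNA was followed in mouse liver progenitor lines as the cells went from basal culture into aggregates. All probe sets annotated to these 6 symbols were taken, which gave 14 of the 45101 probe sets on the array and 6 of 18193 genes. The lines, 9A1 and 14B3, are bipotential mouse embryonic liver (BMEL) lines, immortal epithelial cells that can take on hepatocyte or bile duct features in culture. Both were derived at 14 days post coitum from the livers of embryos of a CBA/J x C57Bl/6J cross, were isolated independently and have no engineered allele named in the labels, and each stands for 1 isolate. Each line was sampled in basal culture, as aggregates of 1 day and as aggregates of 5 days, with 2 biological replicates per line and culture, which made 12 Affymetrix arrays.

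EPCAM is a transmembrane glycoprotein of many epithelia that binds its like on neighbouring cells and is associated with claudins. In liver it is known from bile duct cells and from the progenitor cells around them, while mature hepatocytes have little of it. CD24 is a small, heavily glycosylated protein held in the membrane by a glycosylphosphatidylinositol (GPI) anchor, and CD44 is the main receptor for the matrix polymer hyaluronan. CD133, the product of Prom1, sits on membrane protrusions. CD109 is a GPI-anchored protein of the alpha-2-macroglobulin family that binds the TGF-beta receptor complex, and KIT is the receptor tyrosine kinase for stem cell factor, best known in blood progenitors, mast cells and melanocytes.

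The 6 genes followed 3 courses. Epcam was 23.9-fold higher in 5 day aggregates than in basal culture, Cd109, Cd44 and Cd24a were 13.0-fold, 4.51-fold and 4.23-fold lower, and Prom1 and Kit did not pass the test in any comparison with all 12 arrays, though both did in some fits with fewer. Of all genes tested 35.4% passed at 5 days against basal culture. At 1 day 0 of the 6 passed, where 14.0% of all genes did. The set split in direction, with Epcam on one side and Cd24a, Cd44 and Cd109 on the other.

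Levels are the deposited log2 values, differences are in log2 units with the standard error of a limma model over all 12 arrays, and p-values carry the Benjamini-Hochberg adjustment over the 15781 genes that were tested. A gene or probe set is called at an adjusted p under 0.05, and was tested if it reached a log2 level of 5, the floor, on at least 2 arrays. One probe set, the highest on average, stood for each gene, and all were then compared. The array medians lay between 6.09 and 6.24, and the number of arrays limits the precision. Keratin 8 (Krt8), an epithelial keratin, lay between 14.01 and 14.23 and E-cadherin (Cdh1) between 11.45 and 12.30 on all 12 arrays, so the epithelial label was borne by its markers. Of 8 blood markers 3 lay under the floor on all 12 arrays, the pan-leukocyte gene Ptprc among them, at 4.48 to 4.73, and 4 lay at or over it on all 12, with Itga2b the highest at 7.26 to 7.79.

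Basal 9A1 replicate 1 stood apart from the other basal arrays, and the basal values of most of the 6 genes turn on it. Hepatocyte markers averaged 10.17 on it, where the other 3 basal arrays had 6.85 to 7.40, and in 5 day aggregates they averaged 10.93 to 12.25. It carries a basal label and was kept in every comparison, and results are also given without it. Day 1 9A1 replicate 2 had a narrower spread of values than the other arrays, with an SD of 2.13 against 2.25 to 2.33.

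**Figure D1:**
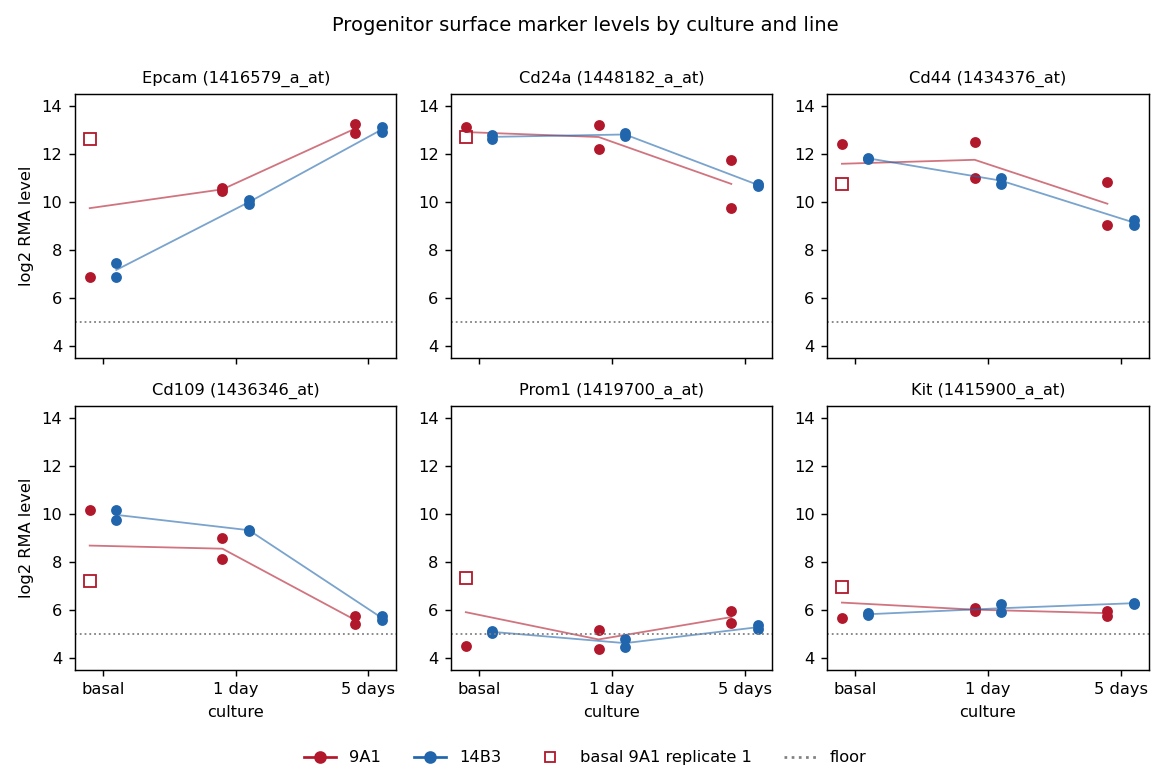
Log2 level of the probe set that stands for each gene on each of the 12 arrays, by culture, with lines through the means of the 2 replicates of 9A1 and 14B3 and the floor of 5 dotted. Epcam lay between 12.88 and 13.24 at 5 days, Cd24a, Cd44 and Cd109 were lower there than in basal culture, and basal 9A1 replicate 1, drawn as an open square, stood at 12.63 for Epcam.

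Epcam, on chromosome 17, was the 1 gene of the 6 that rose. Its stronger probe set, 1416579_a_at, read 12.63 and 6.86 in 9A1 and 6.86 and 7.48 in 14B3 in basal culture, 10.48 and 10.58 in 9A1 and 10.07 and 9.93 in 14B3 at 1 day, and 12.88 and 13.24 in 9A1 and 13.14 and 12.90 in 14B3 at 5 days. All 4 arrays of 5 day aggregates lay above all 4 basal arrays, although basal 9A1 replicate 1 came close below them. Leaving that array aside, the 3 cultures did not overlap, with 1 day in the middle. In bulk RNA, a change in the share of cells that carry a transcript cannot be told apart from a change in its amount per cell, and that holds for each gene here.

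Epcam averaged 13.04 ± 0.18 in 5 day aggregates and 8.46 ± 2.80 in basal culture (SD, n = 4 each), a difference of 4.58 ± 0.97 with a 95% interval of 2.39 to 6.77 (limma adjusted p = 0.00556). Without basal 9A1 replicate 1 the basal mean was 7.07 ± 0.36 (SD, n = 3) and the difference 6.02 ± 0.18, or 64.9-fold (limma adjusted p = 1.87e-07). It was 3.14, and still called, when replicate 2 was left out instead. The size of the rise thus depended on which 9A1 basal array was used, and its direction did not.

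At 1 day Epcam averaged 10.26 ± 0.31, and with all arrays the difference of 1.81 ± 0.97 from basal culture was not called (limma adjusted p = 0.287). With basal 9A1 replicate 1 left out it was 3.25 ± 0.18, or 9.50-fold, and was called (limma adjusted p = 3.31e-05). With replicate 2 left out instead it was 0.36 and was not called. Between 5 days and 1 day, a comparison that uses no basal level but shares the spread estimate, the difference of 2.77 ± 0.97 was not called with all arrays (limma adjusted p = 0.0739). Fitted on the arrays of the cultures compared alone it was again 2.77 and was called (limma adjusted p = 9.76e-06), as it was without either basal array of 9A1.

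The second Epcam probe set, 1447899_x_at, moved much less. It read 8.36 and 7.65 in 9A1 and 7.73 and 7.77 in 14B3 in basal culture, 7.87 and 10.09 in 9A1 and 7.77 and 8.17 in 14B3 at 1 day, and 8.55 and 9.07 in 9A1 and 8.64 and 8.50 in 14B3 at 5 days. Its lowest 5 day array was above its highest basal array, so both probe sets had the same sign. The difference of 0.81 ± 0.42 was not called in the test of each probe set (limma adjusted p = 0.183), and its highest value was on day 1 9A1 replicate 2. The suffix marks a set with probes that may also match other transcripts.

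Hepatocyte and gut epithelium markers moved with Epcam across the arrays. The mean of 9 hepatocyte markers was 6.85 to 7.40 on the 3 other basal arrays, 8.19 to 9.15 at 1 day and 10.93 to 12.25 at 5 days. That of 7 gut epithelium markers was 9.39 to 9.98 on the same basal arrays, 10.75 to 11.21 at 1 day and 11.96 to 12.18 at 5 days, and 11.42 on basal 9A1 replicate 1. Of these, 7 of 9 and 6 of 7 were called higher at 5 days than in basal culture, where 16.9% of all genes were, and none lower. Bile duct markers, 7 in all, averaged 8.70 to 9.04 on the same basal arrays and 9.16 to 9.94 at 1 day. They averaged 8.85 to 9.52 at 5 days, so this mean did not rise further after 1 day. Of these, 2 were called higher and 1 lower at 5 days against basal culture, where 16.9% and 18.5% of all genes were. Their median difference was -0.13. The part of these 3 lists in the Epcam result was not tested.

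Cd109, on chromosome 9, had the largest fall of the 6 genes. Its probe set 1436346_at read 7.19 and 10.16 in 9A1 and 10.15 and 9.76 in 14B3 in basal culture, 8.97 and 8.12 in 9A1 and 9.34 and 9.29 in 14B3 at 1 day, and 5.40 and 5.75 in 9A1 and 5.74 and 5.59 in 14B3 at 5 days. The 5 day arrays lay below every other array and near the floor, so the fold may be understated. Basal 9A1 replicate 1 was the lowest of the basal and 1 day arrays.

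Cd109 averaged 5.62 ± 0.16 in 5 day aggregates and 9.32 ± 1.43 in basal culture (SD, n = 4 each), and fell by 3.70 ± 0.53, with an interval of -4.90 to -2.50 (limma adjusted p = 0.000813). From 1 day, where it averaged 8.93 ± 0.56, the 5 day level was lower by a difference of -3.31 ± 0.53 (limma adjusted p = 0.00303). The 1 day level differed from basal culture by -0.39 ± 0.53 with all arrays (limma adjusted p = 0.725). Leaving out basal 9A1 replicate 1, that difference was -1.13 ± 0.23 and was called (limma adjusted p = 0.00766), and without basal 9A1 replicate 2 it was 0.36 and was not. The fall at 5 days was called in both of these fits, at -4.44 and -2.96. The second probe set, 1425658_at, read 6.98 to 10.36 in basal culture, 7.97 to 9.36 at 1 day and 4.36 to 5.41 at 5 days, and fell by 4.32 ± 0.63 at 5 days against basal culture (limma adjusted p = 0.000957).

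Cd44, on chromosome 2, fell over both lines together and in 14B3, and had 9A1 replicates that disagreed. Its probe set 1434376_at read 10.77 and 12.42 in 9A1 and 11.81 and 11.83 in 14B3 in basal culture, 12.51 and 11.01 in 9A1 and 11.01 and 10.77 in 14B3 at 1 day, and 10.83 and 9.03 in 9A1 and 9.26 and 9.03 in 14B3 at 5 days. In 14B3 the 3 cultures did not overlap. Over both lines they did, since 5 day 9A1 replicate 1 stood just above basal 9A1 replicate 1 and above 1 of the 1 day arrays.

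Cd44 averaged 9.54 ± 0.87 in 5 day aggregates and 11.71 ± 0.69 in basal culture (SD, n = 4 each), and fell by 2.17 ± 0.49, with an interval of -3.27 to -1.07 (limma adjusted p = 0.00732). Against 1 day the difference at 5 days was -1.79 ± 0.49 (limma adjusted p = 0.0294). It was not called with the mean of the gene's probe sets (-1.28, limma adjusted p = 0.0623) or without day 1 9A1 replicate 1, day 5 9A1 replicate 2 or any 1 of the 4 arrays of 14B3 at 1 and 5 days. At 1 day against basal culture it was -0.39 ± 0.49 (limma adjusted p = 0.695). The probe sets 1423760_at and 1452483_a_at had the same direction, with differences of -2.22 ± 0.58 and -2.51 ± 0.62 at 5 days against basal culture, both called. Against 1 day they differed by -1.63 ± 0.58 and -1.75 ± 0.62 and were not called (limma adjusted p = 0.0819 and 0.0809). The 1 other probe set, 1443265_at, lay between 3.74 and 4.27 on all 12 arrays and did not pass the floor. No probe set was matched to a splice form, so standard and variant CD44 were not told apart.

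Cd24a, on chromosome 10, had no called difference at 1 day and fell after it. Its probe set 1448182_a_at read 12.70 and 13.13 in 9A1 and 12.64 and 12.79 in 14B3 in basal culture, 13.20 and 12.22 in 9A1 and 12.89 and 12.74 in 14B3 at 1 day, and 11.74 and 9.77 in 9A1 and 10.75 and 10.68 in 14B3 at 5 days. All 4 arrays at 5 days lay below the other 8, and basal 9A1 replicate 1 lay inside the range of the other basal arrays. On the other Cd24a probe sets it lay just under that range. Epcam, Cd44 and Cd109 had values on that array farther from the other basal values.

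Cd24a averaged 10.74 ± 0.80 in 5 day aggregates and 12.82 ± 0.22 in basal culture (SD, n = 4 each), and fell by 2.08 ± 0.38, with an interval of -2.94 to -1.22 (limma adjusted p = 0.00266). Against 1 day the 5 day difference was -2.02 ± 0.38 (limma adjusted p = 0.00602). At 1 day against basal culture it was -0.06 ± 0.38, with an interval of -0.91 to 0.80 (limma adjusted p = 0.951). The probe sets 1416034_at and 1437502_x_at fell by 2.45 ± 0.38 and 2.13 ± 0.43 at 5 days against basal culture. In basal culture they read 12.14 to 12.72 and 11.41 to 11.87, and at 5 days 8.97 to 11.01 and 8.19 to 10.61. All 3 probe sets had 5 day 9A1 replicate 1 as their highest and 5 day 9A1 replicate 2 as their lowest array of that culture.

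Prom1, on chromosome 5, was at or near the floor on nearly every array. Its 1 probe set, 1419700_a_at, read 7.31 and 4.49 in 9A1 and 5.04 and 5.12 in 14B3 in basal culture, 4.37 and 5.16 in 9A1 and 4.43 and 4.79 in 14B3 at 1 day, and 5.44 and 5.95 in 9A1 and 5.19 and 5.36 in 14B3 at 5 days. Basal 9A1 replicate 1 had the highest value of the 12 arrays, 1.36 above the next, and 4 of the other 11 arrays lay under the floor. The CD133 gene thus gave little signal above the floor in these cultures.

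Prom1 averaged 5.48 ± 0.33 at 5 days and 5.49 ± 1.25 in basal culture (SD, n = 4 each), a difference of -0.01 ± 0.51 with an interval of -1.15 to 1.13 (limma adjusted p = 0.995). Its sign turned with the 9A1 basal array used. Prom1, without basal 9A1 replicate 1, was higher at 5 days by 0.70 ± 0.22 (limma adjusted p = 0.0332), and without basal 9A1 replicate 2 it was lower, at -0.71 (limma adjusted p = 0.0406). At 1 day it was -0.80 ± 0.51 against basal culture (limma adjusted p = 0.378), -0.10 without basal 9A1 replicate 1, and -1.51 and called without basal 9A1 replicate 2 (limma adjusted p = 0.00317). Against 1 day the 5 day difference was 0.80 ± 0.51 (limma adjusted p = 0.335). It was again 0.80, and called, with only the arrays of the cultures compared (limma adjusted p = 0.0331) and without basal 9A1 replicate 1 (0.0165) or replicate 2 (0.0172).

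Kit, on chromosome 5 as well, was low, and its cultures overlapped. Its probe set 1415900_a_at read 6.96 and 5.64 in 9A1 and 5.77 and 5.86 in 14B3 in basal culture, 6.08 and 5.93 in 9A1 and 5.90 and 6.23 in 14B3 at 1 day, and 5.97 and 5.75 in 9A1 and 6.29 and 6.26 in 14B3 at 5 days. The second, 1452514_a_at, read 7.92 and 4.77 in 9A1 and 4.65 and 5.10 in 14B3 in basal culture, 5.76 and 5.39 in 9A1 and 6.10 and 5.94 in 14B3 at 1 day, and 5.53 and 4.80 in 9A1 and 6.34 and 5.58 in 14B3 at 5 days. On both, basal 9A1 replicate 1 was the highest array. Its second-set value lay 1.58 above the next.

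The Kit difference was 0.01 ± 0.25 at 5 days against basal culture (interval -0.55 to 0.57, limma adjusted p = 0.983) and -0.02 ± 0.25 at 1 day (limma adjusted p = 0.969). Neither Kit probe set was called at 5 days without basal 9A1 replicate 1, with differences of 0.34 ± 0.14 and 0.74 ± 0.26 (limma adjusted p = 0.0996 and 0.0516). In that same fit 1452514_a_at was called higher at 1 day against basal culture, at 0.97 ± 0.26 (limma adjusted p = 0.0293), and at 5 days in 14B3, at 1.09 ± 0.33 (limma adjusted p = 0.0361). Blood and mast cell markers, which cover cells best known for KIT, had no called member. The mean of 8 blood markers was 5.37 to 5.78 and that of 7 mast cell markers 5.24 to 6.14 over the 12 arrays, and 0 of the 4 tested of each list were called at 1 or 5 days.

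Prom1 and both Kit probe sets were highest on basal 9A1 replicate 1. This held for 4.54% of the 15781 tested genes, and 0.49% were highest there by at least 1 log2 unit. The 6 genes did not all follow hepatocyte markers on that array. Epcam stood near its 5 day level, Cd44 and Cd109 lay between most other basal and most 5 day values, Cd24a kept a basal level, and Prom1 and Kit went beyond every other array. The part of the hepatocyte markers in the values of Prom1 and Kit was not tested.

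**Figure D2:**
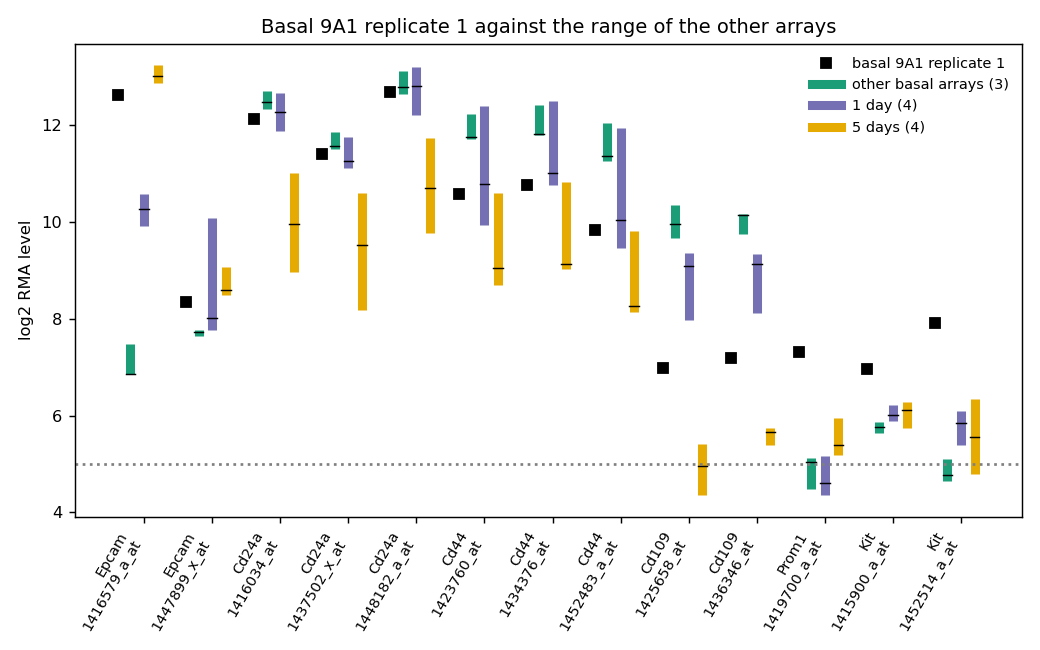
Log2 level of every tested probe set on basal 9A1 replicate 1 (black square) and the range of the 3 other basal arrays, the 4 arrays at 1 day and the 4 at 5 days (bars, with a tick at the median and the floor of 5 dotted). The black square is near the 5 day bar for Epcam, near the basal bar for Cd24a and above all bars for Prom1 and Kit.

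Counted over genes, 4 of 6 were called at 5 days against basal culture, 1 higher and 3 lower, where 35.4% of all tested genes were called, 16.9% higher and 18.5% lower. With 6 genes, this count carries little beyond the genes themselves. At 1 day 0 of 6 were called, against 14.0% of all genes, and at 5 days against 1 day 3 of 6, all lower, against 21.7%, or 10.0% lower. Both contrasts against basal culture draw on one set of 4 basal arrays. Without basal 9A1 replicate 1 the counts were 5 of 6 at 5 days, 2 of 6 at 1 day and 5 of 6 at 5 days against 1 day, where 40.4%, 22.6% and 27.4% of all genes were called.

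Taken one by one, 9 of the 13 tested probe sets were called at 5 days against basal culture, with a background of 33.0% of 28748 probe sets. All 3 of Cd24a, all 3 of Cd44 and both of Cd109 were lower, and 1 of 2 of Epcam was higher. No gene with a called probe set had another of opposite sign. Kit was the 1 gene whose probe sets differed in sign, at 0.01 and -0.05. At 1 day 0 of 13 were called (13.0% of all), and at 5 days against 1 day 6 were (20.0% of all), all lower.

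**Figure D3:**
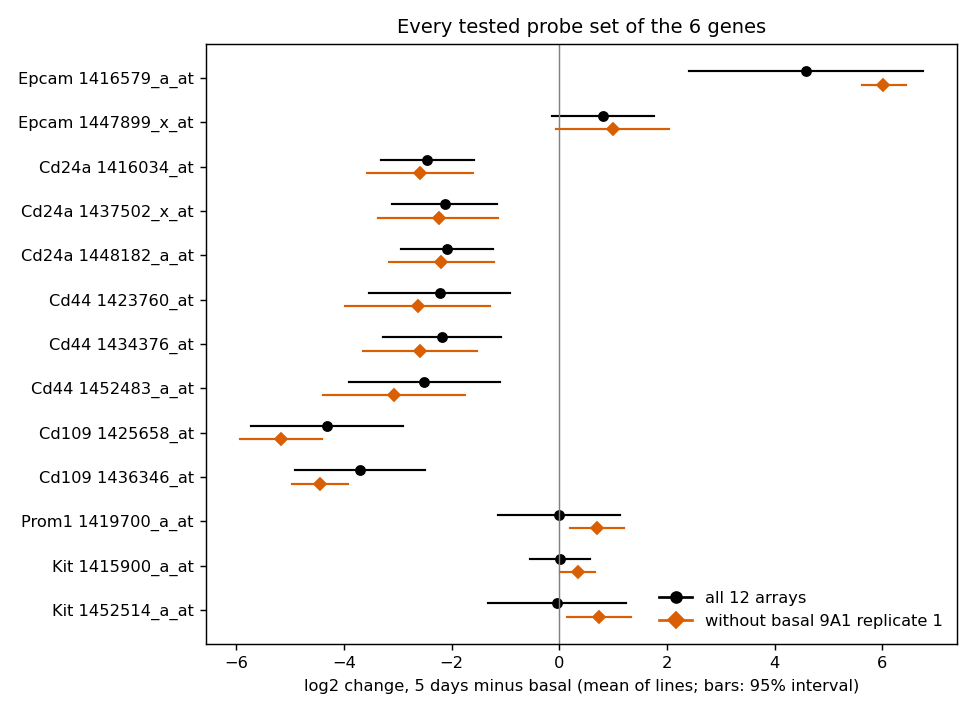
Log2 difference at 5 days against basal culture, averaged over the lines, for each of the 13 tested probe sets, with 95% intervals, from all 12 arrays (black) and without basal 9A1 replicate 1 (orange). All 8 probe sets of Cd24a, Cd44 and Cd109 lie left of 0 with both sets of arrays, and those of Epcam lie to the right, at 4.58 and 0.81 with all arrays.

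The 2 lines were then read apart, to see which courses each showed. In 14B3 at 5 days against basal culture 4 of 6 genes were called, where 26.7% of all genes were. Epcam rose by 5.84 ± 1.37 (limma adjusted p = 0.0136), Cd109 fell by 4.30 ± 0.75 (limma adjusted p = 0.00415), Cd44 fell by 2.68 ± 0.69 (limma adjusted p = 0.0199) and Cd24a fell by 2.00 ± 0.54 (limma adjusted p = 0.0237). Without any 1 of the 4 basal or 5 day arrays of 14B3, Cd109 alone was called.

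In 9A1 at 5 days 2 of 6 were called, against 15.2% of all genes. Cd109 fell by 3.10 ± 0.75 (limma adjusted p = 0.0250) and Cd24a fell by 2.16 ± 0.54 (limma adjusted p = 0.0276). Epcam differed by 3.31 ± 1.37 (limma adjusted p = 0.144) and Cd44 by -1.67 ± 0.69 (limma adjusted p = 0.143), with the same signs as in 14B3. Cd24a was not called without basal 9A1 replicate 2, day 5 9A1 replicate 2 or either 1 day array of 14B3, and Cd109 was not called without either 5 day array of 9A1. Without basal 9A1 replicate 1, which leaves 1 basal array of 9A1, 5 of 6 were called, where 27.0% of all genes were. These were Epcam at 6.20, Cd109 at -4.59, Cd44 at -2.49, Cd24a at -2.37 and Prom1 at 1.21. With basal 9A1 replicate 2 left out instead, Epcam in 9A1 was at 0.43 and Cd44 at -0.84, both smaller in size than with all arrays. In that fit Cd24a was at -1.94, Prom1 at -1.62, Cd109 at -1.62 and Kit at -1.10, so Prom1 had the opposite sign. The size of the Epcam and Cd44 differences in 9A1 thus depended on which basal array was used.

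At 1 day 0 of 6 genes were called in either line, where 1.88% of all genes were called in 9A1 and 8.57% in 14B3. Epcam differed from basal culture by 0.78 ± 1.37 in 9A1 and by 2.83 ± 1.37 in 14B3. The 14B3 arrays read 6.86 and 7.48 in basal culture and 10.07 and 9.93 at 1 day, so they did not overlap. The standard error is shared by all groups, and the 9A1 basal pair read 12.63 and 6.86. Without basal 9A1 replicate 1 the differences were 3.67 in 9A1 and 2.83 in 14B3. The difference between the lines in the 1 day Epcam response was itself tested and was -2.04, with an interval of -6.42 to 2.34 (limma adjusted p = 0.940). It was 0.84 without basal 9A1 replicate 1.

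None of the 6 genes was called between 9A1 and 14B3 in basal culture (0.0190% of all genes were), at 1 day (0% of all genes) or at 5 days (0.247%). None had a called difference in response between the lines, where 0% of all genes did at 1 day and 0.0380% at 5 days. At 5 days the line difference in Epcam, 9A1 minus 14B3, was 0.04, with an interval of -3.06 to 3.14, and that in Cd44 was 0.79, with an interval of -0.77 to 2.34. The intervals are wide, so this does not show that the lines were alike. The difference between the lines in the 5 day response was -2.53 for Epcam (interval -6.91 to 1.85) and 1.19 for Cd109 (interval -1.21 to 3.60). Without basal 9A1 replicate 1 these were 0.35 and -0.29, so both signs turned with that array.

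**Figure D4:**
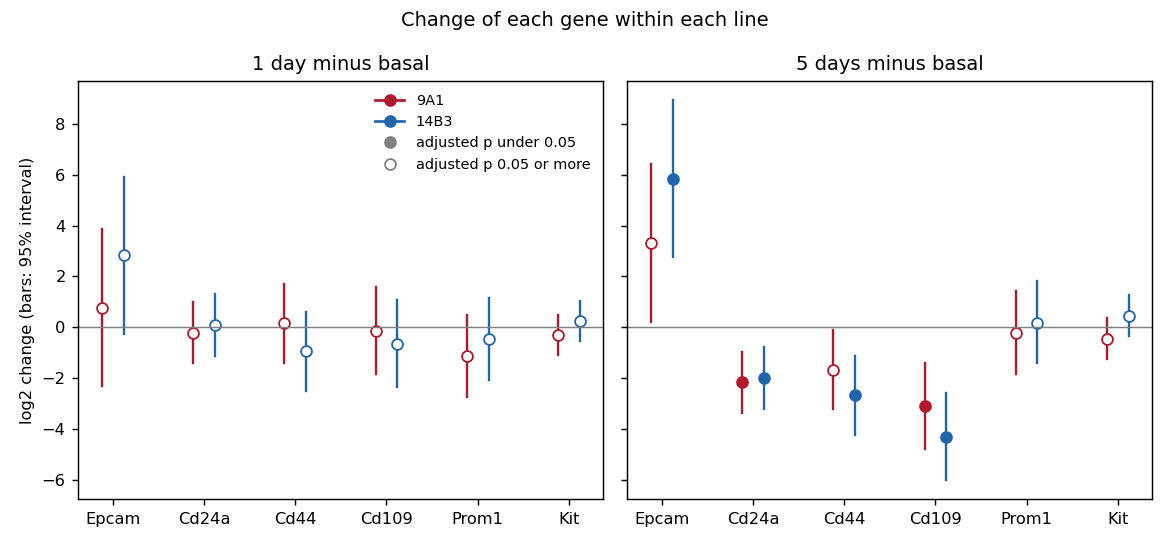
Log2 difference from basal culture at 1 day (left) and at 5 days (right) for each gene in 9A1 and 14B3, with 95% intervals and filled points for an adjusted p under 0.05. At 5 days Cd24a and Cd109 are filled in both lines and Epcam and Cd44 in 14B3.

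Over the 6 groups Epcam averaged 9.75 ± 4.08 in 9A1 and 7.17 ± 0.43 in 14B3 in basal culture, 10.53 ± 0.07 in 9A1 and 10.00 ± 0.10 in 14B3 at 1 day, and 13.06 ± 0.26 in 9A1 and 13.02 ± 0.17 in 14B3 at 5 days (SD, n = 2 each), so every mean of a later culture was above those before it. The test called no difference between neighbours of the same culture. For Cd109 the order of the culture means within each line was the reverse, with 8.68 ± 2.10 in 9A1 and 9.96 ± 0.27 in 14B3 in basal culture, 8.55 ± 0.60 in 9A1 and 9.31 ± 0.04 in 14B3 at 1 day, and 5.57 ± 0.24 in 9A1 and 5.66 ± 0.11 in 14B3 at 5 days (SD, n = 2 each). Its step from basal culture to 1 day was not called in either line, at -0.13 ± 0.75 in 9A1 and -0.65 ± 0.75 in 14B3. In 9A1 this step ranged from -1.61 to 1.36 when 1 array was left out, so its direction there is not settled.

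The 250 bases before the start site of Epcam and of Cd44 are shown because these genes moved in opposite directions and because the letters CAGGTG, an E-box, were searched in both. The sequences are from RefSeq on GRCm38.p6, where 4 of the 6 genes had an entry (Epcam, Cd44, Prom1 and Kit), in the direction of transcription with matches on either strand in capitals. The Epcam window is chr17:87635729-87635978 on the plus strand and the Cd44 window is chr2:102901666-102901915 on the minus strand.
Epcam: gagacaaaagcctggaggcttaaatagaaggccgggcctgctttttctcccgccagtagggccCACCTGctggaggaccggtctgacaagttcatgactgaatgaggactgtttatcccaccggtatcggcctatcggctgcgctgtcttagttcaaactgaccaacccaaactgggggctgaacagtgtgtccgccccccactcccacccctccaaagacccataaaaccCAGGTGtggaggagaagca
Cd44: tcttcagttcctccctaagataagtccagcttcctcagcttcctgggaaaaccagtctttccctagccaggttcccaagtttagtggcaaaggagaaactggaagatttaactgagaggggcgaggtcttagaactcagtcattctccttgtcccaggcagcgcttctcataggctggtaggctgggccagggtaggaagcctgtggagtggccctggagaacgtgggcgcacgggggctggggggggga
The Epcam window had 2 matches, whose first bases lie at -187 and -19 from the start site, and the Cd44 window had none. Prom1, not called with all arrays, had 1 match at its start site 1 and 0 at its start site 2. Kit had 0 at both of its start sites. Of 32851 windows of this length in the table, 17.2% had at least 1 match and 2.1% had 2 or more. Other motifs searched on both strands were the GC box GGGCGG, held by 32.7% of all windows, the TATA box letters TATAAA (12.4%), the TEAD letters GGAATG (12.6%) and the AP-1 letters TGANTCA (6.7%). The Epcam window held the GC box once and the Cd44 window none of these. Prom1 held the GC box at start site 1 and the AP-1 letters at both sites, and Kit the GC box at both. The motifs were chosen with the genes in view, and a match is a run of letters, not a bound site.

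Other genes of the same pathways were read from lists. At 5 days against basal culture 16.9% of all genes were called higher and 18.5% lower. Of 13 tested genes of EPCAM partners and membrane proteases, 2 were called higher and 2 lower at 5 days against basal culture, where 35.4% of all genes were called in either direction, with a median difference of 0.06, where the median of all genes was 0.01. Spint1 and Spint2, inhibitors of the membrane protease matriptase, which cleaves EPCAM, rose by 2.84 ± 0.77 and 1.34 ± 0.19. The Spint1 difference was 3.93 without basal 9A1 replicate 1. Cd9, a tetraspanin, fell by 2.83 ± 0.31. Fhl2, a scaffold protein that joins the released EPCAM tail in the nucleus, fell by 0.84 ± 0.11. The claudin gene Cldn7, whose product binds EPCAM, was not called, at 0.49 ± 0.17 (limma adjusted p = 0.0547), but was at 0.58 without basal 9A1 replicate 1 (limma adjusted p = 0.0431).

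Of 14 tested genes of CD44 and hyaluronan biology, 0 were called higher and 6 lower at 5 days, where 16.9% and 18.5% of all genes were, with a median of -0.30. The second hyaluronan receptor gene Hmmr fell by 3.63 ± 0.33, and its product is also a spindle protein. Vcan, which encodes the hyaluronan-binding proteoglycan versican, fell by 2.71 ± 0.90 (-3.37 without basal 9A1 replicate 1). The 3 genes of the ERM family, whose proteins tie the CD44 tail to actin, all fell, Rdx by 2.23 ± 0.33, Msn by 2.15 ± 0.35 and Ezr by 0.69 ± 0.08. The hyaluronan synthase gene Has3 differed by 0.05 ± 0.22 (limma adjusted p = 0.903), and Has2 did not pass the floor. Esrp2, a regulator of CD44 splicing, differed by 0.31 ± 0.14 at 5 days (limma adjusted p = 0.127; 0.40 and called without basal 9A1 replicate 1, limma adjusted p = 0.0386) and rose by 0.61 ± 0.14 at 1 day (limma adjusted p = 0.0198). Esrp1 did not pass the floor, and Spp1, which encodes the CD44 ligand osteopontin, was not analysed here. Leaving out basal 9A1 replicate 1, there were 2 called higher and 6 called lower.

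Of 15 tested genes around CD109 and the TGF-beta receptors, 2 were called higher and 4 lower at 5 days, where 35.4% of all genes were called in either direction, with a median of -0.32. Cav1, which encodes the caveolar protein to which CD109 directs the receptors, fell by 5.22 ± 0.36 (limma adjusted p = 3.32e-05). The latent TGF-beta binding protein gene Ltbp1 fell by 2.57 ± 0.50 and the ligand gene Tgfb1 fell by 1.41 ± 0.37. Tgfbr3, a co-receptor, rose by 1.03 ± 0.21. Of the receptors themselves, Tgfbr1 was called lower at 5 days against 1 day, at -0.82 ± 0.17 (limma adjusted p = 0.00963). Tgfbr2 was not, at -0.16 ± 0.19 (limma adjusted p = 0.644). At 5 days against basal culture neither receptor was called, with Tgfbr1 at -0.44 ± 0.17 (limma adjusted p = 0.0772) and Tgfbr2 at -0.22 ± 0.19 (limma adjusted p = 0.479). CD24 and CD109 share a GPI anchor, and of 20 tested genes of its synthesis 5 were called higher and 1 lower, where 16.9% and 18.5% of all genes were, with a median of 0.32. Pigc rose by 1.09 ± 0.25, Piga by 0.77 ± 0.20, Pigm by 0.68 ± 0.14 and Pigv by 0.48 ± 0.15, while Cd24a and Cd109 fell.

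Of 10 tested genes of prominin and membrane protrusions, 4 were called higher and 3 lower at 5 days, where 16.9% and 18.5% of all genes were, with a median of -0.03. Myo1a, a brush border myosin, rose by 5.40 ± 0.95 and Vil1, an actin bundler of microvilli, by 3.29 ± 0.67. These differences were 6.79 and 4.22 without basal 9A1 replicate 1. The scaffold genes Slc9a3r1 and Pdzk1 rose by 1.51 ± 0.24 and 1.49 ± 0.19. Ezr, which is on this list as well, was 1 of the 3 called lower, at -0.69 ± 0.08. Prom2, the relative of Prom1, differed by -0.12 ± 0.19 (limma adjusted p = 0.739). Of 14 tested genes of the KIT ligand and signalling, 2 were called higher and 1 lower, where 35.4% of all genes were called, with a median of 0.00. Kitl, which encodes stem cell factor, differed by 0.22 ± 0.28 (limma adjusted p = 0.636). Its level was 10.71 to 12.40 in basal culture, 10.85 to 11.94 at 1 day and 11.41 to 11.87 at 5 days. Pik3r1 and Src rose by 0.60 ± 0.21 and 0.47 ± 0.14, and the phosphatase gene Ptpn11 fell by 0.40 ± 0.13.

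Of 20 tested genes of other progenitor surface proteins, 2 were called higher and 4 lower at 5 days, where 35.4% of all genes were called in either direction, with a median of -0.10. Anpep, which encodes the peptidase CD13, rose by 4.52 ± 0.56 (5.21 without basal 9A1 replicate 1). Besides Cd9, Icam1 fell by 1.29 ± 0.35 and Cd14 by 0.81 ± 0.25. With basal 9A1 replicate 1 left out, 2 of this list were called higher and 6 lower, as were 4 and 2 of the EPCAM partners, 6 and 2 of the GPI anchor genes, 2 and 6 of the TGF-beta receptor list, 4 and 3 of the protrusion genes and 2 and 1 of the KIT list. In that fit 40.4% of all genes were called.

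The genes whose levels ran most like each member over the 12 arrays were named by Pearson's r, as a description, since all points share the cultures. Epcam ran with Gjb1, the connexin 32 gene of hepatocyte gap junctions (r = 0.994), Serpinb1a (0.993) and the sterol transporter gene Abcg5 (0.992), and these values were 0.993 to 0.996 without basal 9A1 replicate 1. Cd109 ran with Ryk, a Wnt receptor gene (0.986), Fads3 (0.985) and Nme4 (0.983). Cd44 ran with Pald1 (0.977), Tead2, the gene of a transcription factor that YAP binds (0.973), and Mpzl1 (0.972). Cd24a ran with Wdr6 (0.983), the chloride channel gene Ano1 (0.982) and Unk (0.978).

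The likeness for Prom1 and Kit rested in part on basal 9A1 replicate 1. Prom1 ran with the laminin gene Lama3 (r = 0.940), Tmem54 (0.937) and S100a14 (0.931) over 12 arrays, and without that array at 0.804, 0.863 and 0.770. By r without that array these genes ranked 253, 65 and 445, so they were no longer the genes most like Prom1. Kit ran with Serpini1 (0.929), Flrt3 (0.924) and Srgn (0.901), and without that array at 0.782, 0.840 and 0.690, with ranks of 25, 2 and 215. Lama3 read 7.06 on that array and 5.04 to 5.83 on the others, and Srgn, the gene of the granule proteoglycan serglycin, 11.41 against 3.92 to 7.54.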

How the data were processed

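Total RNA from the 12 cultures was biotin-labelled and hybridised to Affymetrix mouse arrays. The authors deposited log2 levels per probe set, and the submitters' processing notes name RMA and R 2.3.1. RMA scales the probe intensities of all arrays to a common distribution, so differences in total RNA are not seen. The levels per probe set need not share that distribution. High levels may be compressed. The genome build is not given in the sources used here. Detection calls and scan batches were not used here.

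Of 45101 probe sets, 34945 had 1 gene in the platform annotation, 932 several and 9160 none listed, and 64 were controls. Only those with 1 gene were used. RefSeq GRCm38.p6 held the Entrez identifier of 34741. The probe set with the highest mean stood for each of 18193 genes, 9010 of which had more than 1, and 15781 genes reached the floor, log2 5, on 2 or more arrays and were tested. Columns of values left unmapped numbered 0. In R 4.3.3, limma 3.58.1 fitted 6 group means with empirical Bayes moderation and a variance trend, and the same model was run on 28748 probe sets one by one. Folds are powers of these log2 differences. The model was tested on simulated data in which a gene had the same spread on all arrays. In the real data the SD of the replicate difference was 0.896 in basal 9A1 and 0.779 in 9A1 at 1 day. The other groups had 0.196 to 0.405, so the simulation does not speak to this unequal spread.

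The 6 genes and the gene lists were chosen with earlier results of these data known. The text names every probe set of the 6 genes, the 3 genes most like each, up to 4 called genes per list with the largest change at 5 days, and ligands, partners or relatives of the 6 genes, of which 1 is not reported here. Alternatives were a floor of 6 or none, averaged probe sets, median centring, quantile normalisation, array weights, no variance trend, only the arrays compared, a replicate block, and leaving out each array, or basal 9A1 replicate 1 with day 1 9A1 replicate 2.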

Additional observations from a re-analysis of the deposited data

Results flagged for a closer look

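Each of the 14 probe sets was checked in its 4 arrays of each culture for 1 array far from the others. This made 42 groups, and 8 had such an array. Chance gives about 1 in 20 for independent groups of like arrays. These groups mix 2 lines and share genes and arrays, so 8 of 42 cannot be weighed by that rate.

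Of the 8, 5 were values of basal 9A1 replicate 1. Epcam stood there at 12.63 on 1416579_a_at, where the other basal arrays read 6.86 to 7.48, and at 8.36 on 1447899_x_at, where they read 7.65 to 7.77. Cd109 stood at 7.19 on 1436346_at, below the others at 9.76 to 10.16. Kit stood at 6.96 on 1415900_a_at and at 7.92 on 1452514_a_at, above the others at 5.64 to 5.86 and 4.65 to 5.10.

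The other 3 were values of Cd44 in 9A1 replicate 1 of the aggregates. On 1434376_at it read 12.51 at 1 day, where the other arrays read 10.77 to 11.01, and 10.83 at 5 days, where they read 9.03 to 9.26. On 1452483_a_at it read 9.81 at 5 days, and the others 8.15 to 8.31.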

How the results depend on the processing

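The 4 calls at 5 days against basal culture, Epcam higher and Cd24a, Cd44 and Cd109 lower, held under each alternative run for them, which were 10 settings and the 12 arrays left out in turn. Leaving out 1 array at a time gave 4 to 5 called genes there, 2 to 5 at 5 days against 1 day, 0 to 2 at 1 day, 0 to 5 at 5 days in 9A1, 1 to 4 at 5 days in 14B3, 0 to 2 at 1 day in 9A1 and 0 to 1 in 14B3. It gave 0 to 4 called line differences in basal culture and 0 to 3 for each response by line, the highest without basal 9A1 replicate 2. Called probe sets numbered 0 to 4 at 1 day, 7 to 10 at 5 days and 4 to 9 at 5 days against 1 day. A single array left in a group was assumed to vary like the others. Without basal 9A1 replicate 1 and day 1 9A1 replicate 2 together, 2 genes were called at 1 day, 2 at 1 day in 9A1, 2 at 1 day in 14B3, 5 at 5 days in 9A1, 5 at 5 days in 14B3 (with Kit at 0.46, limma adjusted p = 0.0435) and 5 at 5 days against 1 day, which also had 5 with only the arrays compared.

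Reversed signs were of differences not called with all arrays. With that pair left out, Cd24a at 1 day was 0.08 (0.06 in 9A1), Kit 0.34 (0.43 in 9A1), Prom1 at 5 days 0.70 (1.21 in 9A1), Kit at 5 days in 9A1 0.21, and Kit at 5 days against 1 day -0.003. With the mean of probe sets Kit was 0.08 at 1 day, -0.02 at 5 days and -0.10 at 5 days against 1 day, Cd44 at 1 day in 9A1 -0.02 and Cd24a at 1 day in 14B3 -0.11. Prom1 at 5 days was 0.02 under median centring and quantile normalisation, and Cd109 at 1 day in 9A1 0.06 under the second. Leaving out 1 array gave, at 1 day, -0.30 to 0.19 for Cd24a, -0.80 to 0.03 for Cd44, -1.13 to 0.36 for Cd109 and -0.35 to 0.30 for Kit. In 9A1 it gave -2.10 to 3.67 for Epcam, -0.70 to 0.28 for Cd24a, -0.67 to 0.98 for Cd44, -2.55 to 0.27 for Prom1, -1.61 to 1.36 for Cd109 and -0.95 to 0.36 for Kit. At 5 days it gave -0.71 to 0.70 for Prom1 (-1.62 to 1.21 in 9A1) and -0.32 to 0.34 for Kit (-1.10 to 0.21 in 9A1), and -0.05 to 0.12 for Kit at 5 days against 1 day. The cause was not tested.

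Replicate numbers did not pair the arrays in all groups, with correlations of the replicate differences between -0.30 and 0.50. The largest were 0.50 between the lines at 1 day and 0.38 between 1 and 5 days in 9A1. Next was 0.29 between 14B3 at 1 day and 9A1 at 5 days, and the other pairs of groups had -0.30 to 0.13. What these aggregate groups shared was not tested. With the replicate number as a block, 4 genes were called at 5 days, 0 at 1 day and 2 at 5 days against 1 day, where Cd44 was not called (-1.79, limma adjusted p = 0.0590). The lists without basal 9A1 replicate 1 were added after seeing the data. The number of arrays, and levels near the floor for Prom1 and for Cd109 at 5 days, limit these values.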
